A study of Mus musculus with 6 samples.

Results

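The genes of the AP-1 transcription factors and of further immediate-early response factors were followed in 410.4 cells, a mouse mammary carcinoma line. The 10 genes were Fos, Fosb, Fosl1, Fosl2, Jun, Junb, Jund, Atf3, Egr1 and Ier3, taken by their symbols from the 55809 symbols of the deposited count table. All 10 were found and all 10 passed the filter on low counts, which left 13956 genes to be tested. The control group, titled Veh in the labels, was 3 libraries of cells kept for 2 days in DMEM with 0.5% serum. The NETs group was 3 libraries of the same line kept for 2 days in medium of the same serum content that carried isolated NETs, neutrophil extracellular traps, which are webs of DNA and granule proteins cast out by neutrophils. Both groups carried the same low serum and antibiotics, and a single cell line stands for the tumour. NETs and anything else that came with them into the medium cannot be told apart. The study's title concerns TGF-beta activation by NETs, and the comparison asked how the cells expressed these genes after 2 days with them.

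AP-1 is not a single protein but a family of dimers. JUN proteins (JUN, JUNB, JUND) pair with one another or with FOS proteins (FOS, FOSB and the FOS-related antigens encoded by Fosl1 and Fosl2) through leucine zippers and bind short palindromes in DNA, and ATF3 can join them. Many of these genes are immediate-early genes, switched on within minutes by growth factors or stress through MAP kinases and then off again. A measurement after days therefore comes after the first burst, and whether the levels had settled was not measured. In mammary carcinoma AP-1 is known for driving matrix proteases and migration, and JUNB is also a known early target of TGF-beta.

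The AP-1 genes did not move as a block. Junb, Fosb and Fosl2 rose with NETs, while Fosl1, Jun and Jund fell, and Fos, Atf3, Ier3 and Egr1 did not pass the test (quasi-likelihood test of edgeR, Benjamini-Hochberg adjusted over all tested genes, called under 0.05). Thus 3 of the 10 genes were called higher, beside 20.2% of all tested genes, and 3 were called lower, beside 18.7% of all tested genes. In either direction 6 of 10 were called, beside 38.9% of all tested genes. With 10 genes chosen with earlier results known, these shares are a description. The median log2 fold change of the 10 was -0.16 and that of all tested genes was 0.00 (-0.0039), while the median size of the change regardless of direction was 0.58 for the 10 and 0.19 for all tested genes. In CPM, counts scaled to the library size and by the TMM method, the groups did not overlap at 7 of the 10 genes, beside 49.0% of all tested genes. The NET libraries were all higher at 3 of them, beside 24.4% of all tested genes, and all lower at 4, beside 24.5%. In a bulk culture, fewer cells that express a gene and less of its RNA per cell cannot be told apart.

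**Figure D1:**
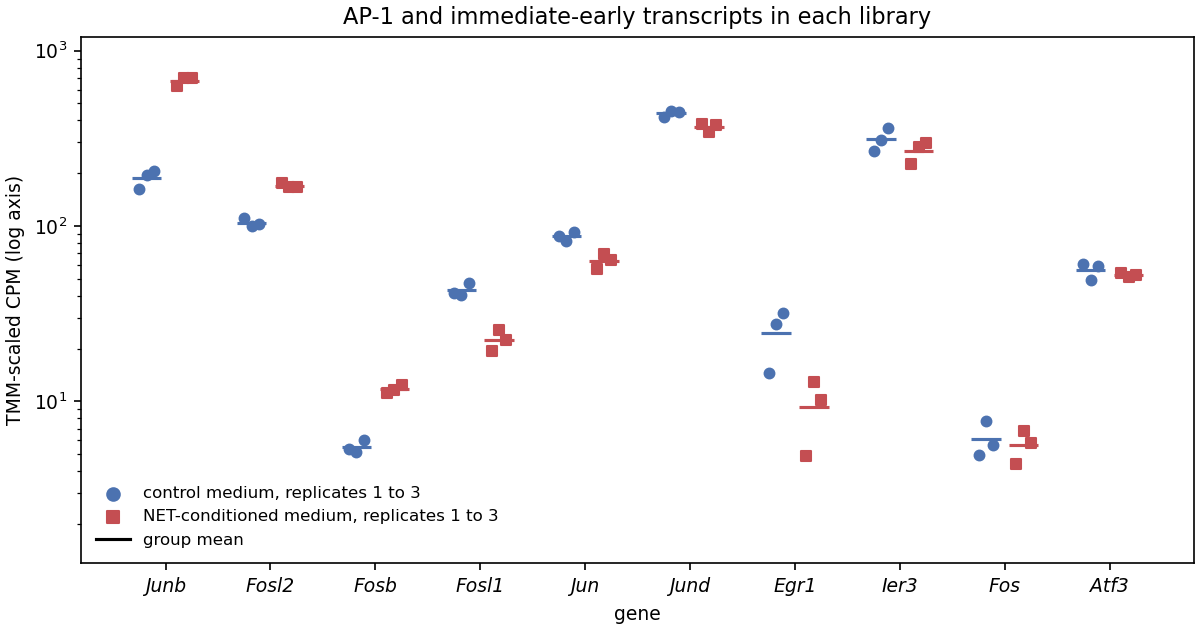
TMM-scaled CPM on a log axis for the 10 genes, with 1 point per library (circles, control medium; squares, NET-conditioned medium) and a line at each group mean. Junb, Fosl2 and Fosb sit higher in all 3 NET libraries, Fosl1, Jun, Jund and Egr1 lower, and the groups overlap at Ier3, Fos and Atf3.

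The libraries held 31119105 to 64431811 counts. The epithelial markers that fit the labelled cell type were abundant in TPM (counts scaled by gene length and library). Their summed level over 10 genes was 9404 to 9992 TPM in control medium and 9786 to 9912 TPM with NETs. Within this sum 3 were called higher (Krt8, Krt7 and Cldn4) and 3 lower (Cdh1, Krt18 and Cldn7), beside 20.2% and 18.7% of all tested genes. Of 17 neutrophil markers 8 had no count in any library, among them Elane, Camp, Ngp and Csf3r, where 6 counts or fewer could have been missed (0.0931 to 0.193 CPM by library, counting error only). The summed level of the neutrophil list was 8.62 to 10.7 TPM in control medium and 14.8 to 16.6 TPM with NETs, and S100a8 was its 1 member called higher. The macrophage list, with Csf1r called higher and Mrc1 lower, went from 62.0 to 66.7 TPM up to 103 to 105 TPM, while Adgre1, C1qb and C1qc had no count. Summed fibroblast markers stood at 17.0 to 19.7 TPM and then 24.1 to 29.4 TPM, with Dcn, Lum and Thy1 at 0 and Col1a1 called higher, and summed endothelial markers stood at 11.7 to 13.1 and then 12.9 to 15.3 TPM, nearly all of it Cdh5, which was called higher, while Tek had no count in the control libraries and Pecam1, Kdr, Tie1 and Emcn had at most 13 counts in any library. The share of mitochondrial counts was lower in each NET library (0.112%, 0.258% and 0.200%) than in each control library (0.283%, 0.316% and 0.283%). The part of these lists and of the mitochondrial share in the results below was not tested.

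The proximal promoters of 3 genes that the results turn on are shown because Junb and Fosb rose while Jun fell. Each run gives the 250 bases before the start site of the RefSeq gene model on build GRCm38.p6, 5′ to 3′ on the gene's strand, and capitals mark matches to the motifs named below.
Junb, chr8:84978749-84978998, strand -: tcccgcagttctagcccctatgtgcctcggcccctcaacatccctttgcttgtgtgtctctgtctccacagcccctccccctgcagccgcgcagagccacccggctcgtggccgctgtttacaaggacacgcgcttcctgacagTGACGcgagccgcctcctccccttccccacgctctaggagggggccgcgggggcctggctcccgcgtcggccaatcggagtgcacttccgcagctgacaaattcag
Fosb, chr7:19310046-19310295, strand -: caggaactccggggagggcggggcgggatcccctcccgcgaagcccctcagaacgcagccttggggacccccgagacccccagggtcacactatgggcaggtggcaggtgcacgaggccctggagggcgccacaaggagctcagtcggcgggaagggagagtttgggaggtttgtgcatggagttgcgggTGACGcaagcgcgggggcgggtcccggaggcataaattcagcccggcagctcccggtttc
Jun, chr4:95052223-95052472, strand -: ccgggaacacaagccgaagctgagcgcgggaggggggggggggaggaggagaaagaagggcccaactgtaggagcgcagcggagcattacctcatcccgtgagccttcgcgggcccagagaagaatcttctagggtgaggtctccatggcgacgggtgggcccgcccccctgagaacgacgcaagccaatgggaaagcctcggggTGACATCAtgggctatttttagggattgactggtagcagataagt
Capitals in Junb and Fosb mark TGACG, the core of the cyclic AMP response element that CREB and ATF factors bind, which begins 106 bases before the Junb start and 60 bases before the Fosb start. Capitals in Jun mark TGACATCA, the site through which JUN is known to act on its own gene, which begins 45 bases before the start. The same search on both strands covered the 8 of 10 genes with an entry used here. Fosl1 and Egr1 were thus not searched, nor were bases beyond the 250 of each window, where further sites could lie. The search found TGACG also in Fos (129 and 66 bases before the start), and in Atf3, on the other strand, 7 bases before it. Of 32851 promoters of this length 17.8% held TGACG and 2.93% held TGACATCA. No match was found in the 8 windows to the consensus AP-1 site TGACTCA (4.46% of promoters), the full element TGACGTCA, which contains TGACG (1.55%), the CArG box of SRF (1.47%), the SMAD palindrome GTCTAGAC (0.17%) or the SMAD site CAGAC (42.2%). These matches describe the letters only. TGACG stood in promoters of genes that rose (Junb, Fosb) and of genes that were not called (Fos, Atf3). It was not found in the window of Fosl2, which also rose, nor in those of Jun and Jund, which fell.

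Among the JUN genes Junb rose while both others fell. Junb, whose protein often restrains growth where JUN promotes it, had 162, 196 and 206 CPM in control replicates 1 to 3 and 625, 700.4 and 695 CPM in NET replicates 1 to 3. Each NET library was thus far above each control library, and the fold change was 3.58 (log2 fold change 1.84 ± 0.08 SE, 95% interval 1.66 to 2.02, n = 3 per group, adjusted p = 1.64e-09 in edgeR). Of all tested genes, 2.02% changed by more on the log2 scale than Junb.

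Jun, the founding member and the strongest transactivator of the family, went the other way. It had 87.8, 82.0 and 92.4 CPM in the control libraries and 57.0, 69.3 and 64.0 CPM in the NET libraries, again without overlap, and was 1.38-fold lower (log2 fold change -0.47 ± 0.07 SE, edgeR adjusted p = 4.26e-05). Jund, which most cells keep on at a steady level, had 421, 455 and 446 CPM in the control libraries and 383, 342 and 374 CPM in the NET libraries. Its groups did not overlap either, but the fall was small (log2 fold change -0.26 ± 0.05 SE, edgeR adjusted p = 0.000795).

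Because these 3 proteins compete for the same partners, their transcripts were also set against one another, on the TPM scale. In control medium Jund made up 70.8 ± 1.38% of the summed JUN-family TPM, and Junb 20.1%, 22.2% and 23.2% in replicates 1 to 3. With NETs, Junb made up 52.3%, 57.3% and 55.3% and Jund 44.3%, 38.6% and 41.1%. Junb was thus the second most abundant JUN transcript in each control library and the most abundant in each NET library. The Junb share rose by 33.1 percentage points, from 21.9 ± 1.57% to 54.9 ± 2.53% (mean ± SD, n = 3), and the share of Jun went from 7.36 ± 0.593% to 3.73 ± 0.331%. The ratio of Junb to Jun was 2.99 ± 0.387 in control medium and 14.7 ± 0.654 with NETs, and that of Junb to Jund was 0.280, 0.313 and 0.335 and then 1.18, 1.48 and 1.35. The summed JUN-family level was 1465 ± 59.4 TPM in control medium and 2013 ± 53.9 TPM with NETs, so the pool as a whole grew 1.37-fold, by Junb alone, as Jun and Jund fell. These shares are descriptions without a test and rest on the deposited gene lengths. They also rest, in TPM and in CPM, on the counts of Jund. Of the Jund exons 52.6% overlap a gene on the other strand, and whether the counting used strand is not stated. Without length scaling, in CPM, Junb likewise went from 26.2 ± 1.81% to 61.0 ± 2.20% of the JUN-family sum, and Jund and Jun took smaller shares.

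**Figure D2:**
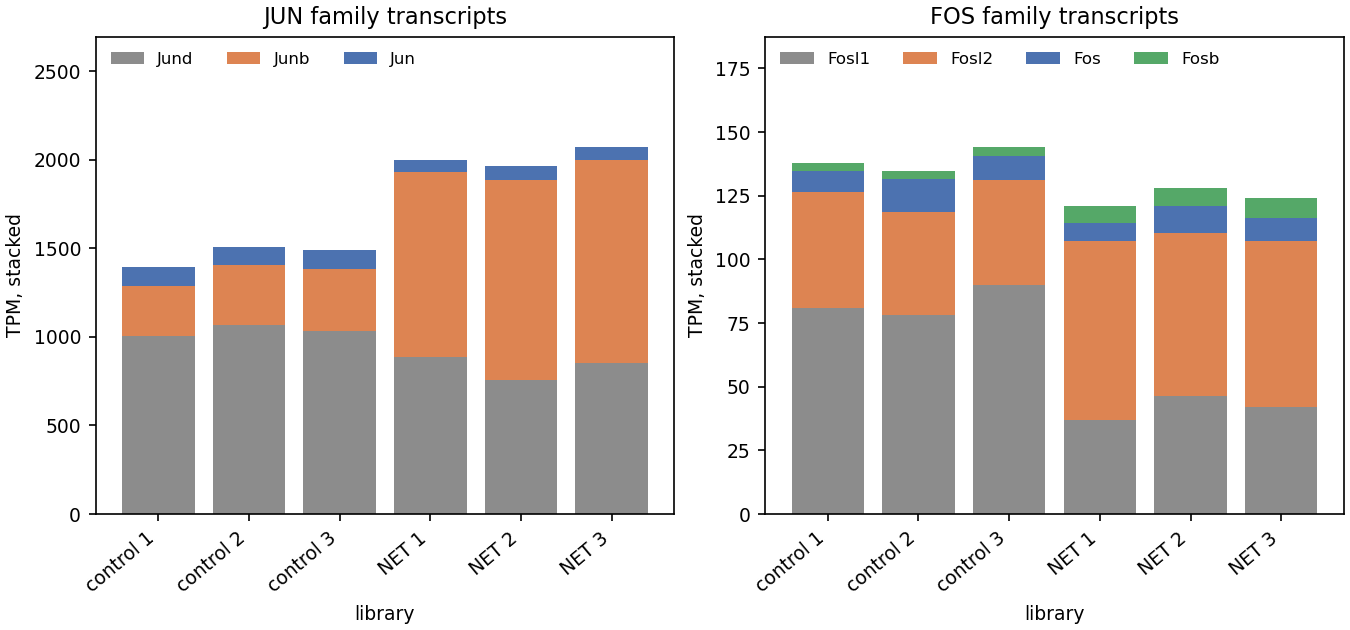
Stacked TPM of the JUN-family transcripts (left) and FOS-family transcripts (right) in each of the 6 libraries, on linear axes that start at 0 and differ in scale. Junb goes from 21.9% of the JUN-family total to 54.9%, and Fosl2 passes Fosl1 in all 3 NET libraries on this length-scaled measure, whereas in CPM Fosl2 was above Fosl1 in all 6 libraries.

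The FOS genes also moved in opposite directions. Fosl1 encodes FRA-1, a FOS protein without a strong activation domain that is tied to invasive growth of breast cancer cells. It had 41.2, 40.5 and 47.4 CPM in the control libraries and 19.4, 25.5 and 22.5 CPM in the NET libraries. The NET libraries all lay below the control libraries, and Fosl1 was 1.92-fold lower (log2 fold change -0.94 ± 0.09 SE, edgeR adjusted p = 7.37e-07). Fosl2 encodes FRA-2, its closest relative, and moved in the opposite direction. It had 110.4, 99.9 and 103 CPM in the control libraries and 177, 167 and 166 CPM in the NET libraries, 1.63-fold higher (log2 fold change 0.70 ± 0.05 SE, edgeR adjusted p = 1.02e-08).

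Fosb, better known for its stable splice form in the brain, had the lowest mean TPM of the 10 genes in both media, although with NETs its range over libraries lay within that of Egr1. It had 5.32, 5.13 and 6.03 CPM in the control libraries and 11.2, 11.6 and 12.4 CPM in the NET libraries, and the rise of 2.14-fold left no overlap (log2 fold change 1.10 ± 0.10 SE, edgeR adjusted p = 2.62e-07). Fos itself, the archetype of an immediate-early gene, stayed near the bottom in both media, at 4.93, 7.72 and 5.63 CPM in the control libraries and 4.37, 6.77 and 5.80 CPM in the NET libraries. Its groups overlapped and it did not pass (log2 fold change -0.11, 95% interval -0.50 to 0.28, edgeR adjusted p = 0.673). The sign of the Fos difference turned without control replicate 2 or NET replicate 1, to log2 fold changes of 0.085 and 0.045.

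In TPM, Fosl1 made up 58.6%, 58.0% and 62.5% of the FOS-family sum in control medium and 30.4%, 36.3% and 33.8% with NETs. Fosl2 went the other way, from 32.9%, 30.0% and 28.5% to 58.1%, 49.9% and 52.5%. Fosb went from 2.48 ± 0.101% to 5.72 ± 0.354% of the sum, while Fos held 7.34 ± 1.92% and 7.26 ± 1.24%. The exchange of places between Fosl1 and Fosl2 appeared only per length, since the deposited length is 2033 bases for Fosl1 and 9680 bases for Fosl2. Of the Fosl1 exons 57.2% overlap a gene on the other strand, so the level of Fosl1 is uncertain on both scales. In CPM, Fosl2 held the largest share of the FOS-family sum in each of the 6 libraries, 65.6 ± 2.39% in control medium and 81.0 ± 2.23% with NETs, while Fosl1 went from 27.1 ± 1.99% to 10.7 ± 1.47%. The direction of the FOS-family sum also turned with the scale. It was 139 ± 4.73 TPM in control medium and 124 ± 3.43 TPM with NETs, but 159 ± 4.90 and 209.9 ± 2.49 in CPM. The ratio of the JUN-family to the FOS-family sum was higher with NETs on both scales, 10.5 ± 0.547 and then 16.2 ± 0.720 in TPM, and 4.51 ± 0.328 and then 5.26 ± 0.222 in CPM.

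The factors outside the JUN and FOS families gave no call. Egr1 encodes a zinc finger factor that binds GC-rich promoters and is induced through SRF. It had 14.5, 27.5 and 32.0 CPM in the control libraries and 4.91, 12.9 and 10.1 CPM in the NET libraries, so that each NET library lay below each control library, the nearest values being 12.9 and 14.5 CPM. The libraries of a group differed widely, with a coefficient of variation (SD over mean) of 36.9% and 43.4%, against medians of 6.11% and 5.95% over 1779 genes within 1.5-fold of its level. With that spread Egr1 was not called (log2 fold change -1.43 ± 0.50 SE, 95% interval -2.80 to -0.06, adjusted p = 0.0973 in edgeR), whereas DESeq2 and limma-voom called it lower (adjusted p = 0.0176 and 0.0033).

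Ier3, an anti-apoptotic early-response gene and a target of NF-kB and p53, was the most abundant of the 10 per length in control medium, at 1082 ± 144 TPM, and the second with NETs, at 898 ± 117 TPM. Its CPM values were 268, 309 and 360.0 in control medium and 226, 284 and 298 with NETs, with overlap and no call (log2 fold change -0.21, 95% interval -0.58 to 0.15, edgeR adjusted p = 0.318). Atf3, a stress-induced factor that often represses, had 60.7, 49.2 and 58.8 CPM in the control libraries and 54.2, 51.3 and 52.8 CPM in the NET libraries, and did not pass (log2 fold change -0.09, 95% interval -0.24 to 0.06, edgeR adjusted p = 0.323). It was called lower without control replicate 2 (log2 fold change -0.18, edgeR adjusted p = 0.0233). In both groups the replicate 1 library was the lowest for Fos, Junb, Egr1 and Ier3, which are 4 of the 10 genes. Fos varied by 23.8% and 21.4% and Ier3 by 14.8% and 14.1% in the control and NET libraries, where genes of like level varied by medians of 8.76% and 9.50% and of 3.97% and 3.57%.

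**Figure D3:**
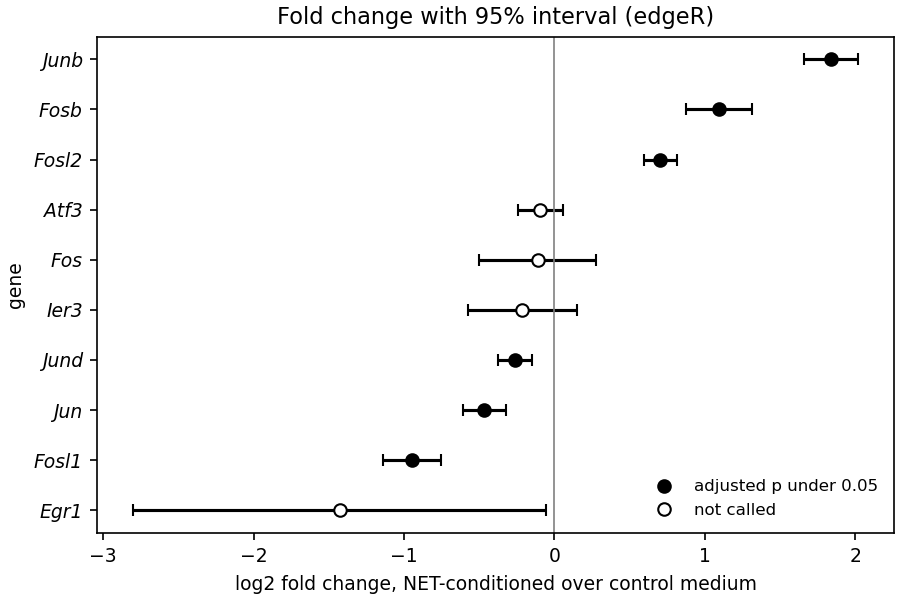
Log2 fold change of each gene, NET-conditioned over control medium, with its 95% interval from edgeR; filled points passed the test and open points did not. Junb, Fosb and Fosl2 lie above 0, Jund, Jun and Fosl1 below it, and Egr1 has the widest interval (-2.80 to -0.06).

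Ordered by mean TPM, the genes stood in control medium as Ier3 and Jund (1082 ± 144 and 1037 ± 32.0, library ranges overlapping), then Junb (321 ± 34.7), Jun and Atf3 (108 ± 5.94 and 103 ± 11.6, overlapping), Fosl1 (83.1 ± 6.25), Fosl2 (42.3 ± 2.72), Egr1 and Fos (21.5 ± 7.69 and 10.2 ± 2.39, ranges just meeting) and Fosb (3.45 ± 0.260). With NETs, Junb led at 1106 ± 53.5 TPM, followed by Ier3 and Jund (898 ± 117 and 832 ± 65.0, overlapping), Atf3 (92.6 ± 4.39), Jun and Fosl2 (75.1 ± 5.91 and 66.4 ± 3.39, overlapping), Fosl1 (41.7 ± 4.86), and then Fos, Egr1 and Fosb (9.05 ± 1.77, 7.79 ± 3.27 and 7.11 ± 0.386, overlapping). Junb thus moved from the third to the first place, and Fosl2 passed Fosl1 on this length-scaled measure. The places of Jund and Fosl1 carry the uncertainty of the exon overlaps given below.

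In the coordinates of the deposited table Junb spans positions 85701113 to 85705347 of chromosome 8 (minus strand) and Jund 71151599 to 71153265 of the same chromosome (plus strand). Jun spans 94937271 to 94940459 of chromosome 4 (minus strand), Fosl1 5497575 to 5505974 of chromosome 19 and Fosl2 32293145 to 32315186 of chromosome 5 (both plus strand). Exons of 4 genes overlap a gene on the other strand, and although the library kit marks strand, whether the counting used it is not stated. Of the Fosl1 exons 57.2% overlap Ccdc85b, which had means of 34.0 ± 0.962 CPM in the control libraries and 32.9 ± 1.34 CPM in the NET libraries (edgeR adjusted p = 0.564). Of the Junb exons 7.52% overlap Prdx2, a peroxiredoxin gene that rose from 198 ± 7.51 to 249 ± 10.6 CPM (log2 fold change 0.33). Overlaps of Jun with Junos (7.28%) and of Jund with Gm11175 (52.6%) involve partners of at most 102 and 79 counts in any library. The values of Fosl1 and Jund and, less so, of Junb and Jun are uncertain to that extent. A low count of the partner gene does not remove this, as the strand setting bears on the counts of both genes.

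Other immediate-early genes fell more often than they rose. Of 30 tested members of a list of 32, 15 were called lower and 7 higher, beside 18.7% and 20.2% of all tested genes (median log2 fold change -0.30). The relatives of Egr1 were low: Egr3 went from 1.83 ± 0.241 to 0.888 ± 0.412 CPM (edgeR adjusted p = 0.00886), Egr2 had 1.18 ± 0.260 and 0.665 ± 0.403 CPM (edgeR adjusted p = 0.0640, not called), and Egr4 had no count. Plk3, a stress-responsive kinase, was called lower, from 101 ± 9.28 to 50.5 ± 2.10 CPM. Rhob, a small GTPase of endosomes and the cytoskeleton, was called higher, from 107 ± 9.01 to 229.8 ± 2.86 CPM, as was Gadd45b, a stress sensor, from 54.3 ± 2.63 to 93.0 ± 5.96 CPM. Ier5 was called lower and Ier5l higher (log2 fold changes -0.30 and 0.36), and Ier2 was not called (66.1 ± 15.5 and 61.1 ± 12.3 CPM).

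No further dimer partner of AP-1 was called higher. Of 10 tested partners on a list of 14, 4 were called lower and 0 higher by edgeR, beside 18.7% and 20.2% of all tested genes (median log2 fold change -0.12). Creb5, a factor that pairs with JUN, went from 30.7 ± 5.76 to 14.2 ± 1.18 CPM (log2 fold change -1.11), and the small MAF genes Mafk, Mafg and Maff fell by 0.46, 0.17 and 0.16 on the log2 scale. The call of Maff was lost under 8 of 15 alternatives and that of Mafg without NET replicate 3 (adjusted p = 0.0537). Of 15 CREB, ATF and C/EBP genes tested 3 were called higher and 5 lower, beside 20.2% and 18.7% of all tested genes (median -0.20). Creb3l2, a membrane-bound factor of the secretory pathway, rose from 22.7 ± 1.27 to 88.0 ± 6.80 CPM (log2 fold change 1.96, edgeR adjusted p = 5.14e-13), while Atf6 and Cebpg fell by 0.30 and 0.28 on the log2 scale. Of the other ATF genes Atf1 was called lower (-0.21), and Atf2, Atf4, Atf5, Atf6b and Atf7 were not called (log2 fold changes of -0.11, -0.09, -0.20, -0.06 and -0.13).

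Genes of the kinases that act on AP-1 were called about as often as all tested genes. Of 21 tested MAP kinase genes 2 were called higher and 6 lower, beside 20.2% and 18.7% of all tested genes (median log2 fold change -0.02). Map2k1, the ERK-activating kinase MEK1, rose by 0.38, while Mapk14, the p38 kinase, fell by 0.32 and Rps6ka5, the chromatin kinase MSK1, fell by 0.76 on the log2 scale. MAP kinase phosphatases, which switch these kinases off, were called higher in 5 and lower in 3 of 10 cases, beside the same shares of 20.2% and 18.7%, which also stand against the counts of the short lists that follow. Dusp6, a phosphatase specific for ERK, went from 263 ± 12.3 to 122 ± 8.21 CPM (log2 fold change -1.11, edgeR adjusted p = 8.94e-11), Dusp5 fell by 0.53 and Dusp7 rose by 0.59. Of SRF and its 5 cofactor genes 3 were called higher, namely Mrtfa (from 55.3 ± 3.12 to 79.5 ± 4.37 CPM), Elk1 and Elk3, and Srf itself fell by 0.16 (edgeR adjusted p = 0.0273). Nab2, a co-repressor of EGR1 and itself an EGR1 target, fell by 0.22, and its relative Nab1 was not called. Of 7 genes for factors that degrade or coactivate JUN proteins, the ubiquitin ligase genes Smurf1 and Itch rose by 0.30 and 0.19, and none was called lower.

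Textbook targets of AP-1 mostly rose, although the AP-1 genes went both ways. Of 25 tested targets 15 were called higher and 6 lower, beside 20.2% and 18.7% of all tested genes (median log2 fold change 0.61). Gja1, the connexin-43 gene, rose from 212 ± 11.2 to 749.7 ± 11.8 CPM (log2 fold change 1.82, edgeR adjusted p = 2.97e-14), and Mmp9, a matrix protease gene, rose by 3.80 on the log2 scale. Several of these genes are also targets of TGF-beta, and Ptgs2, Fn1 and Sphk1 stand on the EGR1 list as well. Of 13 tested EGR1 targets 7 were called higher and 3 lower, beside 20.2% and 18.7% of all tested genes (median 0.27), although Egr1 was lower in each NET library. Pdgfb and Pdgfa, growth factor genes, rose from 53.1 ± 4.54 to 358 ± 20.6 CPM and from 30.4 ± 2.08 to 86.7 ± 2.74 CPM, and Sphk1 rose by 0.85 on the log2 scale. Membership of these lists is textbook knowledge, and no factor binding was measured. Like the other lists, they were chosen with earlier results of these data known, so the shares called are a description.

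**Figure D4:**
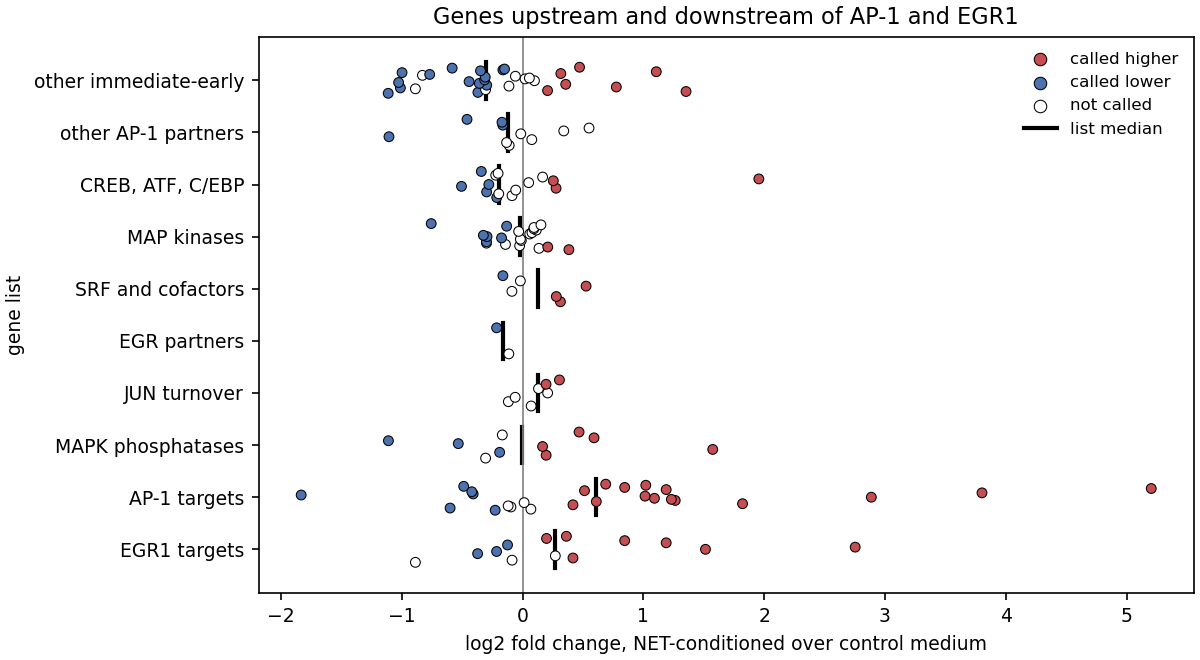
Log2 fold change, NET-conditioned over control medium, of the tested genes on 10 lists, 1 point per gene, coloured by the edgeR call, with a bar at each list's median. Most AP-1 targets lie to the right (median 0.61), other immediate-early genes lie mostly to the left (median -0.30), and kinases cluster near 0.

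The genes most like Junb over the 6 libraries, by Pearson's r of log2 CPM among 10071 genes averaging 5 CPM or more, were Wnt7a, a Wnt ligand gene (r = 0.999), Morf4l2 (r = 0.999) and Rab18 (r = 0.999). Wnt7a went from 96.0 ± 5.84 to 187 ± 2.95 CPM, Morf4l2 from 194 ± 7.69 to 309 ± 6.95 CPM, and Rab18 from 118 ± 2.00 to 141 ± 1.88 CPM, so that genes of much smaller change shared the pattern. Most like Fosl1 were Slc39a8, a zinc transporter gene (r = 0.998), H3f3b and H1f0 (r = 0.998 and 0.997), which were lower with NETs by 0.58, 0.26 and 0.35 on the log2 scale. With 2 groups such values mainly reflect the difference between the media, and 5.57% of the genes compared had an r over 0.95 with Fosl1, and more with Junb.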

How the data were processed

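Messenger RNA was sequenced in 6 libraries, 3 per group. The authors deposited 1 table of counts per gene symbol, with a gene length, made per the submitters' processing notes with STAR 2.7.10a and featureCounts of Subread 2.0.3 (build named: mm10). The kit marks strand; strand setting and annotation: not given in the sources used here. None of the 10 genes lies at its GRCm38 position in the table, so its coordinates follow another build. Between 74.8% and 78.4% of counts from 1 to 20 were even, so mates appear to be counted separately and a fragment gives about 2 counts.

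Counts were used as deposited. Genes were filtered with filterByExpr (minimum count 10), scaled by TMM and compared with edgeR 4.0.16 (glmQLFit, robust; glmQLFTest) in R 4.3.3, with adjustment over 13956 genes at 0.05. Each SE was derived from the F statistic; means and SDs are taken across libraries. The common biological coefficient of variation was 0.0620. TPM used the deposited lengths. Squared differences between libraries of a group were 9.59 to 25.1 times those expected of independent single counts, and none was counted as a duplicate. A fragment that gives about 2 counts raises these values by itself. The labels do not say that replicates were separate cultures, so p-values measure the spread between these libraries. The test was checked on simulated counts.

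The 10 genes, the 10 gene lists and the cell type markers were chosen with earlier results of these data known. Genes named besides the 10 were the up to 3 smallest p-values of each list, relatives of the 10, and the 3 most similar genes to Junb and Fosl1 (pseudocount 0.5 CPM). One gene that this rule names is not reported here. Alternatives were other scalings and filters, DESeq2 1.42.0, limma-voom (limma 3.58.1), a replicate term, counts divided by 2, leaving out each library, and, added after seeing the data, pools summed in CPM.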

Additional observations from a re-analysis of the deposited data

How the results depend on the processing

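The calls and directions of Junb, Fosb, Fosl2, Fosl1, Jun and Jund held under all 15 alternatives, with log2 fold changes of 1.74 to 1.91 for Junb, 1.03 to 1.17 for Fosb, 0.64 to 0.75 for Fosl2, -1.04 to -0.85 for Fosl1, -0.53 to -0.40 for Jun and -0.33 to -0.22 for Jund. Scaled by library size alone, 35.9% of all called genes were higher, against 52.0%, and the median log2 fold change of all genes was -0.07. Over all genes together the replicate numbers did not pair the libraries. Same-numbered deviations correlated with r of 0.19, -0.10 and 0.10 across genes, and not every library correlated best with its own number. These values do not describe single genes, and Fos, Junb, Egr1 and Ier3 were lowest in replicate 1 of both groups. With the replicate block 5 of the 10 genes were called lower instead of 3, adding Egr1 (adjusted p = 4.94e-07) and Ier3 (adjusted p = 0.00215), and 5682 genes were called in all, against 5430. Leaving out 1 library gave 3 to 4 of the 10 lower, and 4321 to 5181 genes in all. Junb share differences were 31.9 to 34.4 points and Fosl1 share differences -27.6 to -24.6 points. In CPM without length scaling, chosen after seeing the data, these differences were 34.8 and -16.4 points, against 33.1 and -26.2. Called EGR partners were 2 instead of 1 with upper-quartile scaling, library size alone and the replicate block, and 1 to 2 without single libraries. Called JUN turnover factors were 4 instead of 2 with library size alone. Signs turned without control replicate 2 or NET replicate 1 for Fos (0.085 and 0.045) and Ier2 (0.027 and 0.047), none of them called; without single libraries Fos ranged from -0.248 to 0.085 and Ier2 from -0.294 to 0.047. The causes were not tested. Counts per library were lowest for Fos (196 to 349), Egr1 (220 to 1762) and Fosb (232 to 642).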
